A study of Mus musculus with 8 samples.

Results

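The 39 Hox genes of the mouse were examined in primary cultures of kidney proximal tubule cells. These line the first stretch of the tubule of the nephron and take back most of the filtered solutes. Members were chosen by name, as the genes called Hoxa, Hoxb, Hoxc or Hoxd followed by a number alone. All 39 in the gene table were on the array, read by 43 probes, among 20659 genes with a symbol and 39429 probes in all. Membership rested on the gene symbol and on no measured value, but the family was taken up with earlier results of these arrays known, so what follows describes its members and is not independent evidence about them.

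Cells were grown to confluence from trypsin-digested kidney cortex of male C57/BJ mice aged 6 weeks and then held in serum-free DMEM. By the labels' protocols the plated pellet was for the most part tubules, with no sorting step given. The 4 GW4064 samples received 1 uM GW4064 for 24 h, and the 4 DMSO samples received the solvent alone for the same time. GW4064 is a compound made to activate FXR, a nuclear receptor whose natural ligands are bile acids, and the labels give no genetic change for either group. RNA was labelled with Cy3 and hybridised to 1-colour Agilent arrays, 1 array per sample.

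Hox genes encode homeodomain transcription factors and lie side by side in clusters, numbered by paralog group. Low paralog numbers are switched on first and nearer the head, high numbers later and nearer the tail, and adult cells keep much of the Hox pattern of the place they came from. In the mouse kidney the paralog 11 genes Hoxa11, Hoxc11 and Hoxd11 are needed for outgrowth of the ureteric bud, and HOX proteins bind DNA together with the TALE homeodomain proteins of the PBX, MEIS and PKNOX families.

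The promoters of the cluster A genes that passed the test are shown first, with that of Hoxa13, at the far end of the same cluster, which was near background. Each is the 250 bases before the annotated start in RefSeq, assembly GRCm38.p6, minus strand, written 5′ to 3′ with CpG dinucleotides in capitals. Hoxa3 is at chr6:52213068-52213317, Hoxa9 at chr6:52227371-52227620, Hoxa11 at chr6:52245811-52246060 and Hoxa13 at chr6:52260881-52261130.
Hoxa3: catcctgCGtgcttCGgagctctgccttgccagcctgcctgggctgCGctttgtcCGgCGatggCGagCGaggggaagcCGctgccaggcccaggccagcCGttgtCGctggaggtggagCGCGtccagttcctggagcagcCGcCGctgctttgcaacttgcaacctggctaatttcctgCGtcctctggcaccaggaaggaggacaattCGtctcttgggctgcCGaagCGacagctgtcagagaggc
Hoxa9: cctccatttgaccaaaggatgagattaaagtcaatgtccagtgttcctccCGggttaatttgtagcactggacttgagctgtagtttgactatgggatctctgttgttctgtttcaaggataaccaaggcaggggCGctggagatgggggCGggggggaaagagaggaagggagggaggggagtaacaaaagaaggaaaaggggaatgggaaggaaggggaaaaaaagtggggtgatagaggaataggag
Hoxa11: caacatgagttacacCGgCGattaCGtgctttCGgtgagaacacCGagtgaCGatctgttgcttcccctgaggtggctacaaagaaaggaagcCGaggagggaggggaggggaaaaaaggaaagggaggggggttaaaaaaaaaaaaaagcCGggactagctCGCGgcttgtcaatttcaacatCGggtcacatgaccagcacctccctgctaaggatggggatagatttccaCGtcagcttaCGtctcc
Hoxa13: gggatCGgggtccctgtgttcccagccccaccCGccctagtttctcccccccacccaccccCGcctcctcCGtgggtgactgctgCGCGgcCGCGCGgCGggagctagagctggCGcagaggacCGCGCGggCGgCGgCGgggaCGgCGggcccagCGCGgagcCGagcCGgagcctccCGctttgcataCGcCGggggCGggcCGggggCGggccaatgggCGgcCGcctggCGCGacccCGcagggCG

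These windows differed in base composition. Hoxa13 held 35 CpG dinucleotides at 80% G and C, Hoxa3 held 18 at 64.8%, Hoxa11 held 13 at 52%, and Hoxa9 held 3 at 49.6%. RefSeq windows were at hand for 24 starts of 22 Hox genes, with a median of 12.5 CpG dinucleotides and 58.6% G and C, against 6 and 52.4% over all 32851 windows. The 5 windows of Hox genes too dim to test (Hoxa13, Hoxb1, Hoxd1, Hoxd12 and Hoxd13) had a median of 24 and ran from 7 to 35. The 19 of tested Hox genes had a median of 12 and ran from 2 to 28. These ranges overlapped, and Hoxb1 (7) and Hoxd12 (10) were below the tested median. Hoxc12 and Hoxc13, also too dim to test, had no window. The half-site of nuclear receptors, AGGTCA on either strand, was found in 6 of the 24 Hox windows (25%) and in 14% of all windows. The FXR inverted repeat AGGTCANTGACCT, which contains that half-site, was in 0 Hox windows and in 0.00609% of all windows. The PBX-HOX motif TGATNNAT on either strand was in 4 Hox windows (16.7%) and in 7.68% of all windows. None of these letters occurred in the windows of Hoxa3, Hoxa9, Hoxa11 or Hoxa13, and a match or its absence describes the window alone.

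Array quality bears on all values below. Between 62.6% and 65.7% of probes were well above background in GW4064 samples, and between 61.4% and 63.1% in DMSO samples. The processed signal had a 75th percentile of 1412 ± 207 in GW4064 samples and 1626 ± 187 in DMSO samples (SD, n = 4 each), and each value below is the log2 signal minus that percentile of its own array. The arrays lay on 2 slides of 4, scanned separately, each with 2 GW4064 and 2 DMSO samples. GW4064 samples took places 3 and 4 of each slide and DMSO samples places 1 and 2, so place and treatment cannot be told apart. Whether the 4 samples of each group were separate cultures or came from separate mice is not in the labels, and p-values here cover only the sample-to-sample spread, which may be technical.

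The labelled cell type was checked against its markers. Of 19 proximal tubule markers, 18 were well above background on all 8 arrays. Of 18 tested, 14 were higher with GW4064 and 0 lower, and their summed level ran from 7.11 to 7.33 in GW4064 samples and from 6.50 to 6.80 in DMSO samples, on the log2 scale. Markers of other cells were present as well. Fibroblast markers (1 of 7 higher) summed to between 4.40 and 4.52 in GW4064 samples and between 4.06 and 4.46 in DMSO samples, with Lum above background on 0 arrays. Leukocyte markers (2 of 5 higher) summed to between 3.71 and 3.94, against 3.34 to 3.53 with DMSO, and endothelial markers (2 of 5 higher) to between 1.52 and 1.64, against 1.05 to 1.53 with DMSO, with Tek above background on 0 arrays. Thick limb and distal tubule markers (3 of 5 lower) summed to between -1.82 and -1.41, against -1.51 to -1.22 with DMSO. Podocyte markers (0 of 5 called) summed to between 3.09 and 3.35, against 2.97 to 3.32 with DMSO, and collecting duct markers (0 of 9 called) to between 0.58 and 0.84, against 0.67 to 1.18 with DMSO. The part of these cells in the Hox differences was not tested, and in bulk samples fewer cells of a type and less RNA per cell cannot be told apart.

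The cultures had most of the Hox family above background, and the genes too dim to test lay in paralog groups 1, 12 and 13. A probe counted as detected on an array where the scanner software called its signal well above background. By that flag 30 of the 39 Hox genes were detected on all 8 arrays, 4 on some and 5 on none. The share on all 8 arrays was 76.9% for Hox genes and 67.0% for all genes with a symbol. All 30 genes of paralog groups 2 to 11 were detected on at least 4 of the 8 arrays. This held for 0 of 2 genes in paralog group 12 and for 1 of 4 in group 13 (Hoxb13). The share on at least 4 arrays was 82.1% for Hox genes (32 of 39) and 70.1% for all genes with a symbol.

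**Figure D1:**
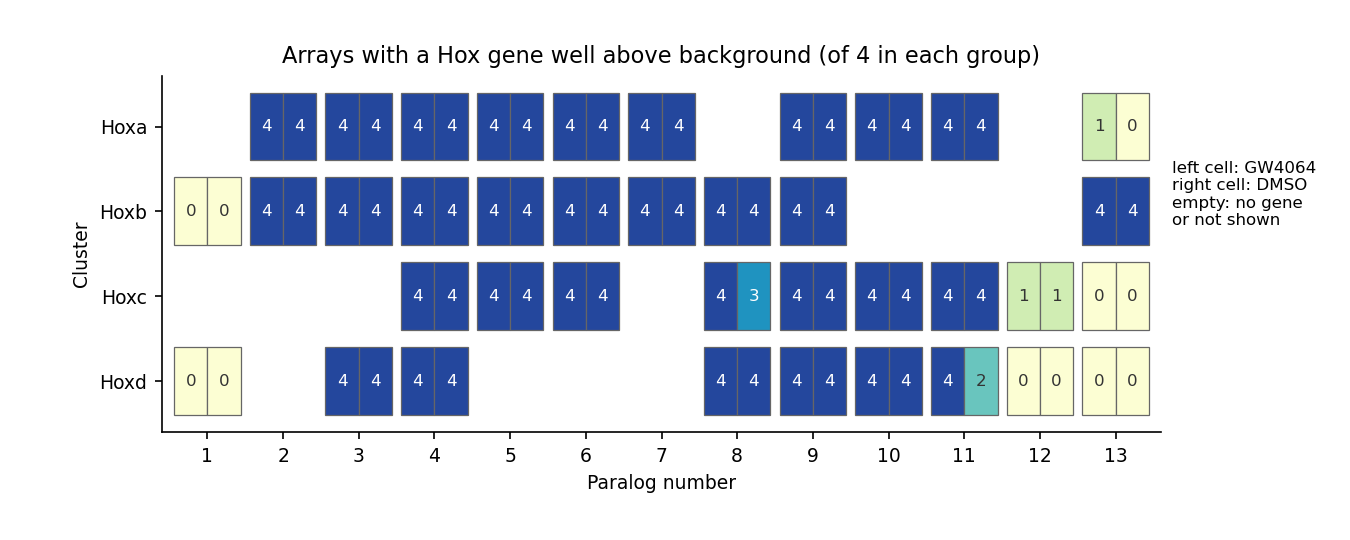
Number of arrays on which the Hox genes shown were well above background, by cluster (rows) and paralog number (horizontal axis). The left cell of each pair counts the 4 GW4064 arrays and the right cell the 4 DMSO arrays. Genes of paralog groups 2 to 11 have 4 in both cells, apart from Hoxd11 and Hoxc8 on DMSO arrays, and the other low counts are in groups 1, 12 and 13.

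By cluster, 10 of 11 Hoxa genes, 9 of 10 Hoxb genes, 7 of 9 Hoxc genes and 6 of 9 Hoxd genes were detected on at least 4 arrays. Hoxb1, which specifies a single hindbrain segment, was detected on 0 arrays although its probe was printed as 10 spots per array, and its processed signal stayed between 4 and 6 units. The hair follicle gene Hoxc13, the digit genes Hoxd12 and Hoxd13, and Hoxd1 were also detected on 0 arrays, with signals between 4 and 8 units. The array floor for these values, taken as the lowest signal of any probe well above background, lay between -6.79 and -6.22 in GW4064 samples and between -6.33 and -6.01 in DMSO samples.

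Of the 4 genes detected on some arrays, Hoxc8 and Hoxd11 were near that floor, and Hoxc12 and Hoxa13 were below it on most arrays. Hoxc8 was detected on 4 GW4064 and 3 DMSO arrays, and Hoxd11 on 4 GW4064 and 2 DMSO arrays, so both entered the test. Hoxc12 was detected on 1 array of each group, and Hoxa13, which shapes the limb and the lower urogenital tract, on 1 GW4064 array and 0 DMSO arrays, so neither did. Hoxa13 was read by 2 probes. The probe in question gave -8.93, -7.58, -8.54 and -3.85 in GW4064 samples and -7.41, -8.48, -8.54 and -8.54 in DMSO samples. Its detection was thus 1 sample, GW4064 replicate 4, while the other probe was detected on 0 arrays. No Hox gene was detected on all 4 arrays of 1 group and on none of the other. With the scanner software's less strict flag, a signal positive and significant against background, 33 Hox genes were above background on all 8 arrays. That was 84.6% of Hox genes, beside 75.3% of all genes with a symbol.

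GW4064 was set against DMSO in the 32 Hox genes tested, which asks what 24 h of FXR agonist did to their transcripts. A few fell slightly, 3 of them in cluster A, and 0 rose. In limma, with Benjamini-Hochberg adjustment over all 14476 genes tested, 4 Hox genes were lower at an adjusted p under 0.05 (9 at an unadjusted p under 0.05), 0 were higher (0 at an unadjusted p under 0.05), and 28 did not pass. Over all genes tested, 20.8% were called, 11.8% higher and 8.95% lower. The Hox share of 12.5% lower was near the background for that direction. The median log2 difference was -0.02 over the 32 Hox genes and 0.01 over all genes, and the median size of the difference was 0.10 in both. Differences ran from -0.37 to 0.17. Within a group, the median SD between samples was 0.096 for Hox genes and 0.0845 for all genes.

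**Figure D2:**
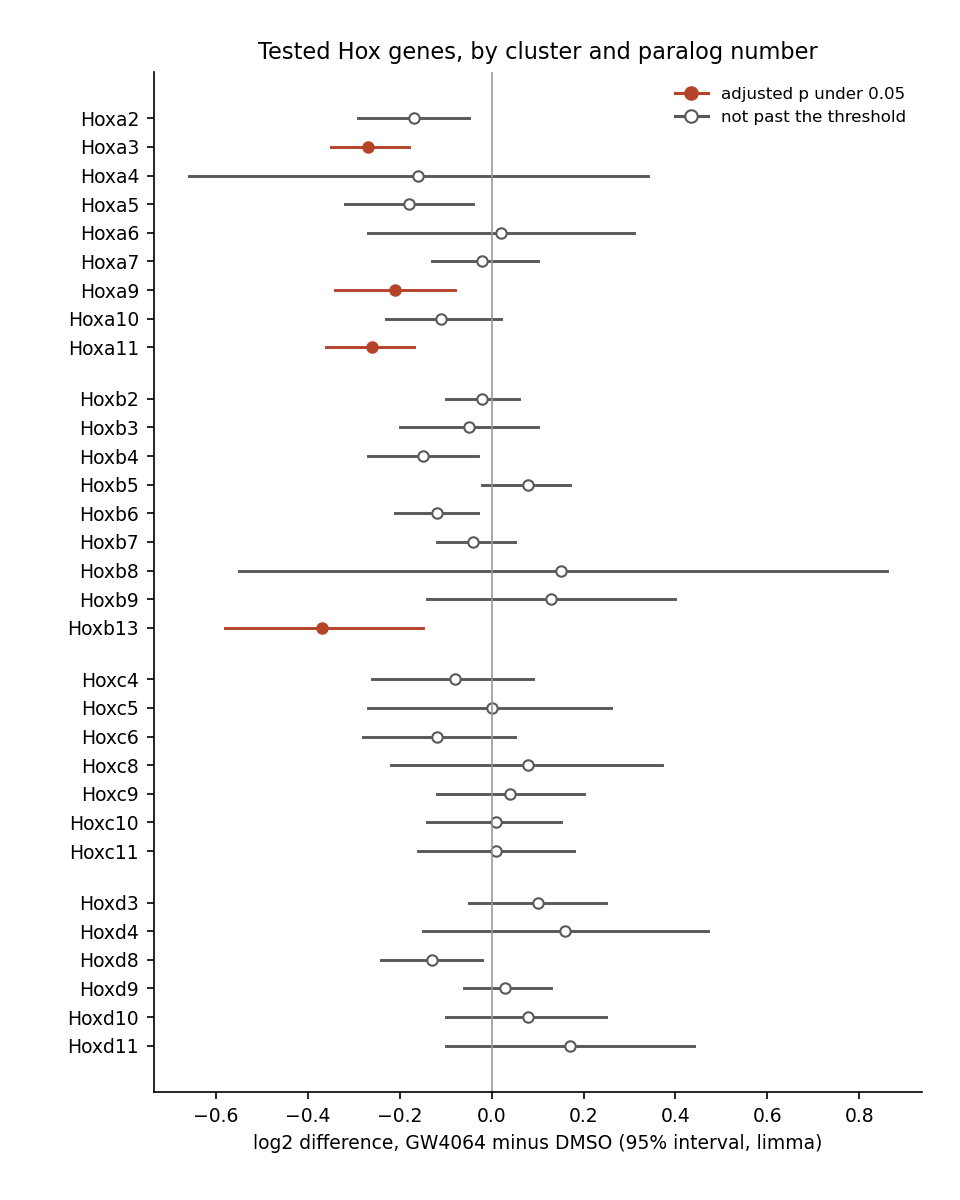
Log2 difference between GW4064 and DMSO samples (horizontal axis) for the tested Hox genes shown, by cluster and paralog number, with the 95% interval from limma. Filled points are the 4 genes past the threshold (Hoxa3, Hoxa9, Hoxa11 and Hoxb13), all below 0, and the intervals of Hoxa4 and Hoxb8 are much wider than the rest.

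The clusters differed in how their members fell around 0, as a description with no test between them. In cluster A 9 of 10 genes were below 0, with a median of -0.17, and 3 passed. In cluster B 6 of 9 were below 0, with a median of -0.04, and 1 passed. Cluster C had 3 of 7 below 0 and a median of 0.01, and cluster D had 1 of 6 below 0 and a median of 0.09. The cluster D median was -0.10 with normexp background correction and 0.07 with normexp without spots of marked background. In limma 0 genes of clusters C and D passed in either direction. At an unadjusted p under 0.05 there were 0 in cluster C and 1 lower in cluster D, Hoxd8. Over all genes tested 45.8% were below 0.

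**Figure D3:**
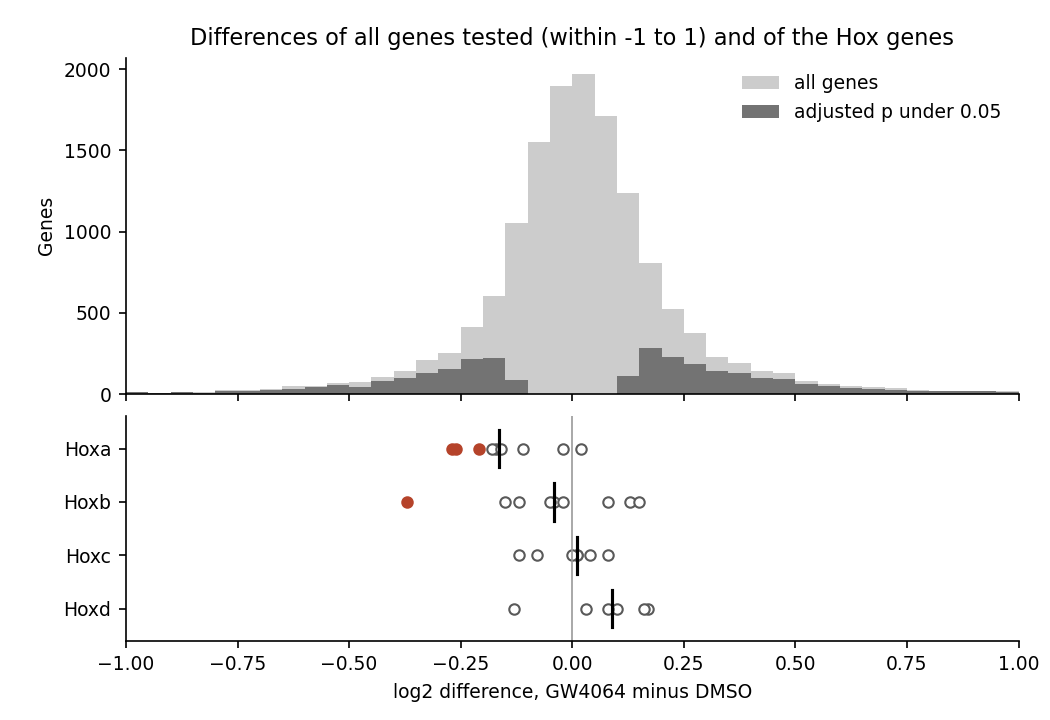
Top, number of genes by log2 difference, GW4064 minus DMSO, for genes within -1 to 1, with those past the threshold in dark grey. Bottom, the tested Hox genes shown on the same axis by cluster, filled where they passed, with the cluster median as a bar. The Hox genes sit inside the bulk of all genes, and the medians of clusters A, B, C and D are -0.17, -0.04, 0.01 and 0.09.

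Hoxa3, which directs development of the thymus and parathyroid, was the Hox gene with the smallest p. Its values were -0.79, -0.79, -0.68 and -0.73 in GW4064 samples and -0.48, -0.46, -0.51 and -0.48 in DMSO samples. The groups did not overlap, and the DMSO samples lay close together. Hoxa3 fell by 0.27 ± 0.038 (SE, n = 4 per group) on the log2 scale, 1.20-fold lower, with an adjusted p of 0.00204 in limma. The difference was -0.32 on slide 1 and -0.21 on slide 2, and on slide 2 alone the adjusted p was 0.238.

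Hoxa11 is one of the paralog 11 genes on which the early mouse kidney depends. It gave -2.44, -2.36, -2.32 and -2.44 in GW4064 samples and -2.15, -2.17, -2.06 and -2.12 in DMSO samples. Again each GW4064 sample lay below each DMSO sample. Hoxa11 fell by 0.26 ± 0.043 (SE) on the log2 scale, 1.20-fold lower, with an adjusted p of 0.00376 in limma. Its probe was printed 10 times on each array, and the SD between these spots was 0.076 to 0.087 on GW4064 arrays and 0.062 to 0.099 on DMSO arrays. The difference was -0.24 on slide 1 and -0.29 on slide 2, where either slide alone did not pass (adjusted p = 0.0968 and 0.185).

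Hoxb13, a gene of the tail end of the embryo and of the prostate, was 1.29-fold lower. Its values were -3.85, -4.00, -3.91 and -4.04 in GW4064 samples and -3.83, -3.38, -3.54 and -3.58 in DMSO samples. The groups did not overlap, but GW4064 replicate 1 and DMSO replicate 1 were only just apart. Hoxb13 fell by 0.37 ± 0.093 (SE) on the log2 scale, with an adjusted p of 0.0262 in limma, and by slide the difference was -0.32 and -0.41. The call was lost without DMSO replicate 2, 3 or 4 or GW4064 replicate 2 or 4, where the adjusted p lay between 0.0545 and 0.0686.

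Hoxa9, a regulator of blood progenitors, was 1.16-fold lower. It gave -1.76, -1.58, -1.70 and -1.65 in GW4064 samples and -1.58, -1.38, -1.41 and -1.48 in DMSO samples. The groups touched, with GW4064 replicate 2 and DMSO replicate 1 at the same rounded value. Hoxa9 fell by 0.21 ± 0.058 (SE) on the log2 scale, with an adjusted p of 0.0368 in limma, and by slide the difference was -0.18 and -0.23. Its second probe gave -1.81, -1.75, -1.70 and -1.67 in GW4064 samples and -1.60, -1.59, -1.71 and -1.63 in DMSO samples, which overlapped. That probe's difference was -0.10 ± 0.046 (SE), with an adjusted p of 0.198 when probes were tested singly. The Hoxa9 call was also lost without DMSO replicate 2, 3 or 4 or GW4064 replicate 1, 3 or 4 (adjusted p between 0.0582 and 0.0975) and with slide as a block (adjusted p = 0.0528).

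**Figure D4:**
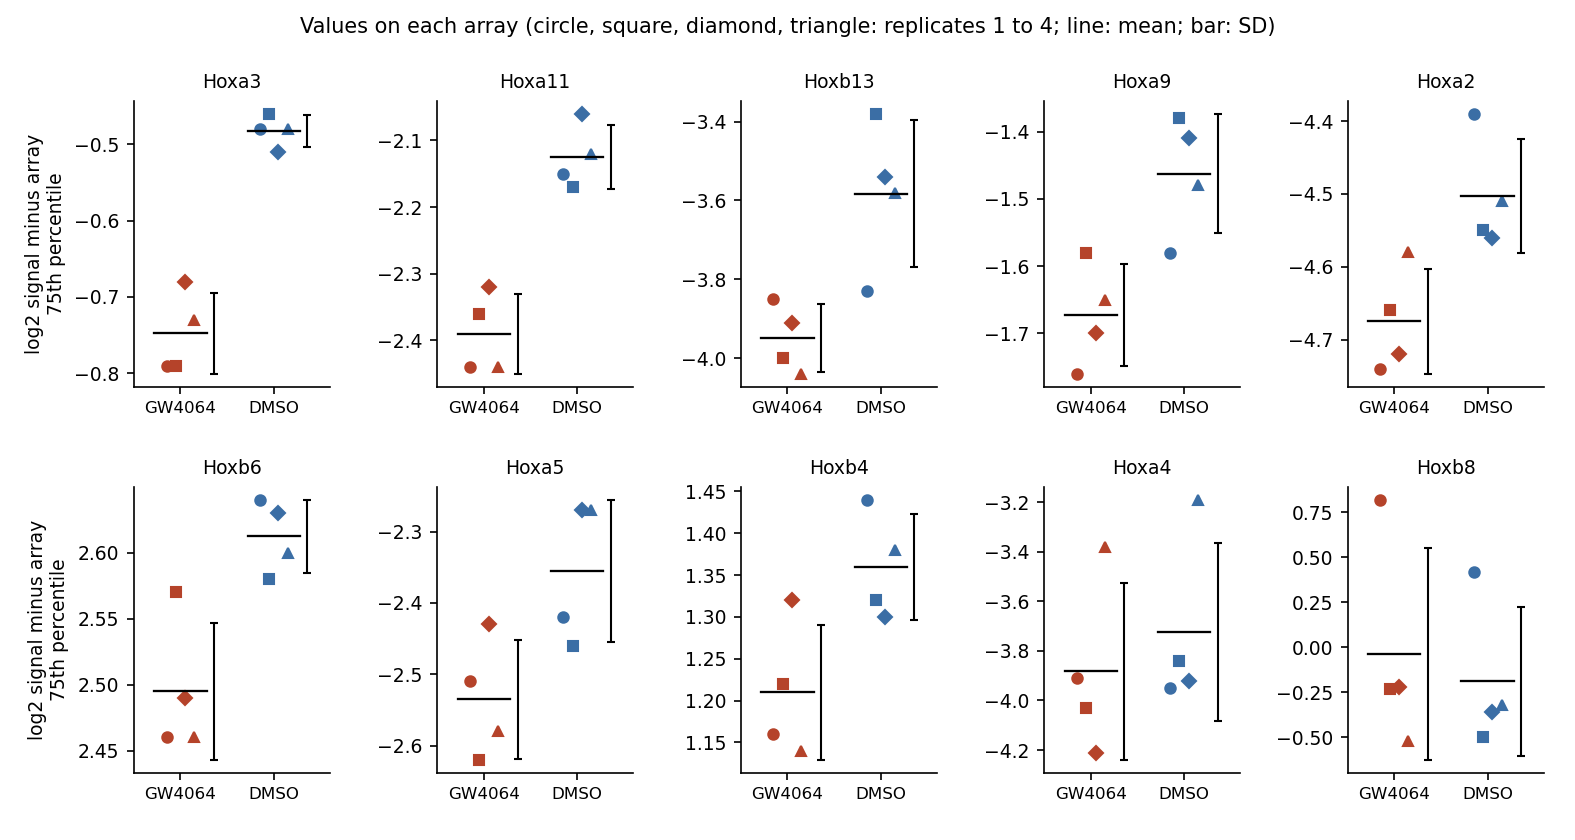
Log2 signal minus the array's 75th percentile (vertical axis) on each GW4064 and DMSO array for the 8 Hox genes with the smallest p and for Hoxa4 and Hoxb8. Marker shapes are replicates 1 to 4, lines are means and bars are the SD. Hoxa3 and Hoxa11 show groups well apart, and in Hoxa4 and Hoxb8 the same replicate number is high in both groups.

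The next 4 genes by p did not pass. Hoxa2, which sets the identity of the second pharyngeal arch, gave -4.74, -4.66, -4.72 and -4.58 in GW4064 samples and -4.39, -4.55, -4.56 and -4.51 in DMSO samples. These groups did not overlap, and the difference was -0.17 ± 0.053 (SE; adjusted p = 0.0520 in limma). Hoxb6 gave 2.46, 2.57, 2.49 and 2.46 in GW4064 samples and 2.64, 2.58, 2.63 and 2.60 in DMSO samples. Here too there was no overlap, with a difference of -0.12 ± 0.038 (adjusted p = 0.0610). Hoxa5, needed for lung development, gave -2.51, -2.62, -2.43 and -2.58 in GW4064 samples and -2.42, -2.46, -2.27 and -2.27 in DMSO samples. Its groups overlapped, the difference was -0.18 ± 0.062 (adjusted p = 0.0784). Hoxb4, which expands blood stem cells when raised, gave 1.16, 1.22, 1.32 and 1.14 in GW4064 samples and 1.44, 1.32, 1.30 and 1.38 in DMSO samples. Its groups overlapped, with a difference of -0.15 ± 0.052 (adjusted p = 0.0810). Each of the 4 passed in some alternatives. Hoxa2 did with quantile normalization, the deposited log2 table, the filter on all 8 arrays and without GW4064 replicate 4 (adjusted p between 0.0333 and 0.0472), and Hoxb6 with quantile normalization, the deposited table, the trended robust variance and without GW4064 replicate 2 (between 0.0358 and 0.0427). Hoxb4 passed with the trended robust variance and without GW4064 replicate 3 (adjusted p = 0.0466 and 0.0383), and Hoxa5 with slide as a block (adjusted p = 0.0479).

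In all, 6 Hox genes had groups that did not overlap, each with GW4064 below DMSO. They were Hoxa2, Hoxa3, Hoxa11, Hoxb6, Hoxb13 and Hoxd8. Over all genes tested 26.2% did not overlap, 15.0% with GW4064 above and 11.2% with GW4064 below. Hoxd8 gave 0.26, 0.36, 0.29 and 0.24 in GW4064 samples and 0.42, 0.37, 0.37 and 0.51 in DMSO samples. Its difference of -0.13 ± 0.047 had an adjusted p of 0.0929 in limma.

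With the main processing, the 28 Hox genes that did not pass were measured closely enough to bound most of their differences. The bounds do not cover the choice of processing. Over the alternatives Hoxc5 ran from -0.70 to 0.09, Hoxd11 from -0.64 to 0.28 and Hoxc8 from -0.63 to 0.28, beyond their intervals. The 95% interval lay within -0.25 to 0.25 on the log2 scale for 14 of them, within -0.5 to 0.5 for 26 and within -1 to 1 for all 28. For 23 the interval held 0. Hoxb7, whose promoter is used in mice to drive transgenes in the ureteric bud and collecting duct, gave 2.66, 2.63, 2.61 and 2.67 in GW4064 samples and 2.67, 2.68, 2.62 and 2.74 in DMSO samples. The groups overlapped, and the interval of the difference ran from -0.12 to 0.05. Hoxa7 had an interval from -0.13 to 0.10 and Hoxb2, a hindbrain gene, one from -0.10 to 0.06. Hoxb3 was read by 2 probes, which differed between groups by -0.05 ± 0.066 and -0.10 ± 0.079 (SE), and neither passed.

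None of the tested paralog partners of the called genes passed. Hoxc11 gave -2.14, -2.10, -2.17 and -2.17 in GW4064 samples and -2.33, -2.17, -1.95 and -2.16 in DMSO samples. The groups overlapped, with an interval from -0.16 to 0.18. Hoxd11, near the floor, had a difference of 0.17 ± 0.12 (SE) and an interval from -0.10 to 0.44. For paralog group 9, the differences of Hoxb9, Hoxc9 and Hoxd9 were 0.13 ± 0.12, 0.04 ± 0.071 and 0.03 ± 0.043, and for group 3 those of Hoxb3 and Hoxd3 were -0.05 ± 0.065 and 0.10 ± 0.065. Whether partners differed from one another was not tested.

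Hoxb8 and Hoxa4 had the widest spread of the 32. For each gene the highest replicate number was the same in both groups, while the order of the other replicates differed. Hoxb8, known in mice for its role in grooming behaviour, gave 0.82, -0.23, -0.22 and -0.52 in GW4064 samples and 0.42, -0.50, -0.36 and -0.32 in DMSO samples. Replicate 1 was highest in each group. Hoxa4 gave -3.91, -4.03, -4.21 and -3.38 in GW4064 samples and -3.95, -3.84, -3.92 and -3.19 in DMSO samples, and replicate 4 was highest in each group. Their differences, 0.15 ± 0.31 and -0.16 ± 0.22 (SE), were smaller than their errors.

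Genes that lie in and beside the clusters were looked at next. These neighbours were the genes annotated inside a cluster, Hox genes apart, and the 3 protein-coding genes on either side. Of 55 such genes 24 were on the array and 21 were tested, with 2 higher, 3 lower and a median of 0.00. These counts are near the shares over all genes tested, 11.8% higher and 8.95% lower. Hoxa11os, the antisense transcript of Hoxa11, gave -0.69, -0.64, -0.66 and -0.66 in GW4064 samples and -0.37, -0.50, -0.48 and -0.53 in DMSO samples. The groups did not overlap, and Hoxa11os fell by 0.19 ± 0.042 (SE) on the log2 scale (adjusted p = 0.0151 in limma). The other transcripts tested inside a cluster, Hoxd3os1 in cluster D and Gm53 in cluster B, had differences of -0.10 and 0.00 and did not pass.

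Among the genes flanking the clusters, 4 passed. Beside cluster A, the sorting nexin gene Snx10 fell by 0.24 ± 0.041 (SE; adjusted p = 0.00518 in limma), while Tax1bp1, an autophagy receptor, rose by 0.13 ± 0.037 (adjusted p = 0.0431). The call of Tax1bp1 was lost without any 1 of the 8 samples (adjusted p between 0.0533 and 0.106). Beside cluster C, the heterochromatin protein gene Cbx5 fell by 0.22 ± 0.040 and Calcoco1 rose by 0.28 ± 0.054. The remaining 14 flanking genes did not pass. They were Skap2, Cbx3 and Hibadh beside cluster A, Cbx1, Atp5g1, Skap1 and Snx11 beside B, Hnrnpa1, Smug1 and Atp5g2 beside C, and Hnrnpa3, Atp5g3, Lnpk and Mtx2 beside D, with differences from -0.16 to 0.05. Evx1, Evx2 and Ttll6 were well above background on 0 arrays.

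Of 12 genes listed with the TALE cofactors of HOX proteins, all tested in limma, 3 rose and 0 fell, with a median of 0.01. Over all genes tested 11.8% rose and 8.95% fell. Tgif1, Tgif2 and Pbxip1, outside the PBX, MEIS and PKNOX families, are on the list. Pbxip1 was the 1 gene lower at an unadjusted p under 0.05. Meis1 gave -0.95, -0.95, -0.75 and -0.98 in GW4064 samples and -1.52, -1.32, -1.22 and -1.29 in DMSO samples. Every GW4064 sample was above every DMSO sample, and Meis1 rose 1.34-fold (log2 difference 0.43 ± 0.077 SE; adjusted p = 0.00634 in limma). Pbx4 rose by 0.56 ± 0.097 and Pknox2 by 0.34 ± 0.079 (adjusted p = 0.00513 and 0.0180), although both were below 0 with normexp background correction (-0.11 and -0.14). Each passed in 20 of the 22 alternatives, among them all 8 that left out a sample. Pbx2, Pbx3, Meis2 and Meis3 had differences between -0.06 and 0.05 and did not pass. Pknox1 (-0.30 ± 0.18 SE), Tgif2 (-0.16 ± 0.074), Pbxip1 (-0.09 ± 0.036) and Tgif1 (0.10 ± 0.046) did not pass either.

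**Figure D5:**
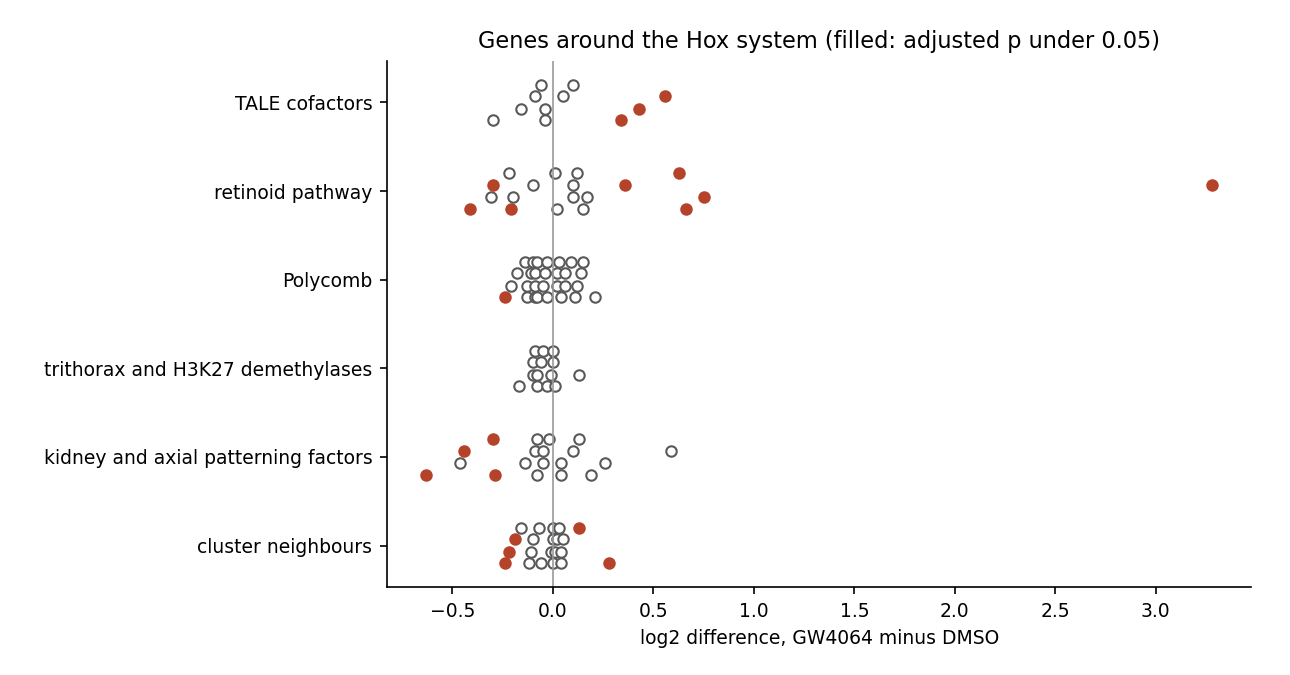
Log2 difference between GW4064 and DMSO samples (horizontal axis) for the tested genes shown of 6 lists related to the Hox genes, filled where the adjusted p was under 0.05. The filled TALE cofactors lie above 0, the filled kidney and axial patterning factors below 0, and Crabp1 stands far right at 3.28.

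Retinoic acid induces Hox genes in the embryo. Of 19 tested genes of 21 in its pathway, 5 rose and 3 fell, with a median of 0.10, beside 11.8% higher and 8.95% lower over all genes tested. Crabp1, which binds retinoic acid in the cytosol, gave -1.54, -1.52, -2.23 and -1.61 in GW4064 samples and -4.70, -4.57, -5.56 and -5.17 in DMSO samples. The groups were far apart, and Crabp1 rose 9.71-fold (log2 difference 3.28 ± 0.24 SE; adjusted p = 6.49e-05 in limma). The size of its difference depended on the background correction, at 1.51 with normexp, where the call was lost (adjusted p = 0.532), and 2.23 with normexp without spots of marked background (adjusted p = 3.35e-06). The retinaldehyde reductase Dhrs3 rose by 0.63 ± 0.045, the retinol transporter Stra6 by 0.75 ± 0.067 and the receptor Rara by 0.36 ± 0.053. Named outside the 4 with the smallest p, after their values were seen, Aldh1a3, which makes retinoic acid, rose by 0.66 ± 0.15, while its relative Aldh1a2 fell by 0.30 ± 0.062, Crabp2 fell by 0.41 ± 0.086 and the receptor Rarb fell by 0.21 ± 0.036.

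Few of the tested genes on lists of chromatin factors that hold Hox genes off or on passed. Of 29 tested Polycomb genes 0 rose and 1 fell in limma, with a median of -0.04, against 11.8% and 8.95% of all genes. At an unadjusted p under 0.05 there were 2 higher and 4 lower. The 1 called gene, Pcgf6, fell by 0.24 ± 0.053 (SE; adjusted p = 0.0165), a call lost without DMSO replicate 2 (adjusted p = 0.0501). Of 14 tested genes on the list of trithorax factors and H3K27 demethylases, which also holds Dot1l and Kansl1, 0 passed in limma. At an unadjusted p under 0.05 there were 0 higher and 2 lower, and the median was -0.06. Kmt2a, on the same list, had no probe matched to its symbol and was not measured.

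Of the transcription and signalling factors that pattern the kidney and the body axis, 19 of 25 were tested. In limma 4 fell and 0 rose (0 higher at an unadjusted p under 0.05), with a median of -0.05, beside 8.95% lower and 11.8% higher over all genes tested. Sall1, a zinc finger gene of nephron progenitors, gave -1.16, -1.22, -1.20 and -1.07 in GW4064 samples and -0.50, -0.60, -0.60 and -0.43 in DMSO samples. The groups did not overlap, and Sall1 fell by 0.63 ± 0.054 (SE; adjusted p = 0.000137). Pax8, a kidney lineage gene, fell by 0.29 ± 0.054, the nephron segment gene Pou3f3 fell by 0.30 ± 0.057 and Irx3 fell by 0.44 ± 0.11. The Irx3 call was lost without DMSO replicate 2 or 4 or GW4064 replicate 2, 3 or 4 (adjusted p between 0.0517 and 0.0595). The caudal genes Cdx1, Cdx2 and Cdx4, which act on posterior Hox genes in the embryo, were detected on 1, 1 and 0 of the 8 arrays, and the ureteric bud receptor Ret on 0.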

How the data were processed

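RNA from 4 GW4064 and 4 DMSO samples was hybridised to the arrays. The deposited spot intensities had their background subtracted by version 10.7.3.1 of Feature Extraction, per the file headers. Tools listed in the submitters' processing notes are Agilent's Feature Extraction 10.7 and also limma. The authors also deposited a table of log2 values with an unstated scale. Each of its columns correlated at 0.9996 or more with its own array and had a median of 6.598, and it served as an alternative.

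Spots of 1 probe not marked as outliers were averaged on the log2 scale after division of processed signals by their array's 75th percentile. Probes well above background on at least 4 of 8 arrays were kept, and the brightest kept probe stood for each gene. Accessions were matched to RefSeq GRCm38.p6 for names, giving 69.1% of probes a symbol. The headers name another build, so coordinates are given only for RefSeq sequences. The comparison used R 4.3.3 and limma 3.58.1 with lmFit, eBayes, no covariate and a threshold of 0.05 on p-values adjusted by Benjamini-Hochberg over 14476 genes, and the script was tested on simulated data. Intervals are at the 95% level, and the number of arrays limits the precision.

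Values are given for the Hox genes past the threshold and those with the next smallest p up to 8, for up to 4 called genes of each related list and for all tested neighbours, and other genes were chosen after their values were seen. Values of 1 Hox gene and 1 TALE cofactor, which stay in the counts and medians, are not reported here. The members and lists were chosen with earlier results of these data known. Alternatives covered background correction, normalization, filters, the detection flag, several probes per gene, slide, replicate number, the variance model, the deposited table and leaving out each sample. Normexp was run on median spot signals. Fitting normexp without spots of marked background was chosen after seeing the data.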

Additional observations from a re-analysis of the deposited data

Results flagged for a closer look

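Of 138 groups of 4 samples examined over the Hox genes, their neighbours and the called genes of the related lists, 6 (4.35%) had 1 sample far from the other 3, where chance gives about 5%. Among Hox genes this was Hoxa4, at -3.19 in DMSO replicate 4 against -3.95 to -3.84 in the other DMSO samples. GW4064 replicate 3 was the sample apart for Crabp1 (-2.23, others -1.61 to -1.52), Pbx4 (-3.22, others -2.91 to -2.85), Meis1 (-0.75, others -0.98 to -0.95) and Aldh1a2 (2.69, others 2.61 to 2.62). Cbx3, beside Hox cluster A, was at 2.93 in DMSO replicate 2 against 2.99 or more in the other DMSO samples. Each value is a log2 signal scaled to its array's 75th percentile.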

How the results depend on the processing

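Over 22 alternatives and 32 Hox genes, 702 differences were computed. Of these 665 kept their side of the threshold, 26 no longer passed, 11 newly passed and 0 called ones turned. Genes that did not pass could change sign and still count among the 665. Hoxa6, for example, ran from -0.5 to 0.18 and Hoxd3 from -0.48 to 0.14. The counts of Hox genes lower (4 as reported), of related genes higher (10) and lower (11) and of all genes called (3006) moved by over 1.5 times in these settings. With normexp (offset 50) they were 0, 0, 1 and 120. On DMSO replicate 3, 6 spots lay over 100 units below their local background and the fitted background mean was -1089.3, against -15.5 to -3.8 on the other arrays. Pbx4 (-0.11) and Pknox2 (-0.14) turned under that setting. Normexp without spots of marked background gave the same 4 Hox genes and 2204 genes in all. Without a filter on dim probes 2 Hox genes were lower. On slide 1 alone, with fewer samples, the counts were 1, 6, 1 and 966, and on slide 2 alone 0, 2, 0 and 220. Leaving out each sample gave 2 to 4 Hox genes lower, and 2 without DMSO replicate 2, 3 or 4. Upward, 6 Hox genes were lower with quantile normalization, with the deposited log2 table and with the trended robust variance, and 5 with the filter on all 8 arrays, and related genes lower reached 15. The count of Hox genes higher was 0 in each setting, and the cluster A median lay between -0.40 and -0.07. With the replicate number as a block 3 Hox genes were lower, Hoxb13 missed the threshold (adjusted p = 0.0717) and 2322 genes were called. Deviations of same-numbered samples correlated at -0.13, -0.03, 0.19 and -0.02, so the numbers were not treated as pairs. Precision is limited by 4 samples per group, and Hoxd11 and Hoxc8 were close to background.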
